A study of Mus musculus with 4 samples.

Results

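The genes of the proteasome whose symbols begin with Psma, Psmb, Psmc or Psmd were examined by RNA-seq in primary mouse liver sinusoidal endothelial cells (LSECs), the fenestrated cells that line the small vessels of the liver. The rule took every gene whose symbol is one of these 4 stems followed by a number, and it found 39 of the 18373 genes in the table. They comprise 14 core subunits, 17 cap subunits, 3 immunoproteasome subunits (Psmb8, Psmb9 and Psmb10), 3 assembly chaperones of the cap (Psmd5, Psmd9 and Psmd10) and 2 core subunits known from single tissues, Psma8 of the testis and Psmb11 of the thymus cortex.

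The proteasome is the protease complex that degrades most ubiquitin-tagged proteins in the cytosol and nucleus. Its core is a barrel of alpha rings, which gate the entry, around beta rings, which hold the active sites. The cap recognises ubiquitin, removes it and unfolds the substrate with a ring of ATPases. Cells exposed to interferon exchange the catalytic beta subunits Psmb5, Psmb6 and Psmb7 for Psmb8, Psmb9 and Psmb10, and the resulting immunoproteasome favours peptides that fit MHC class I molecules. LSECs are known to present antigen to T cells.

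The cells came from livers of 8-week-old Balb/c mice. The labels name digestion with pronase and collagenase, and the study's methods for LSECs name collagenase, a density gradient and magnetic beads against CD146, an endothelial surface protein. The cells were cultured for 24 h and then given siRNA for 48 h, and the labels place them at day 3. Of the 4 libraries, 2 are labelled NC (a control siRNA) and 2 are labelled siAirn (siRNA against Airn, a long noncoding RNA). The study describes separate siRNAs against Airn, but both siAirn titles carry the name siAirn1, and which siRNA each library received was not worked out. The labels call the libraries of a group biological replicates without naming animals, so p-values measure the spread between these libraries.

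The library totals were between 17308382 and 18371959 estimated counts, and the 39 genes held between 0.558% and 0.593% of them. The counts of Airn were 7 and 3 with the control siRNA, and 11 and 9 where the label is siAirn, so the targeted RNA was not lower where the label says it was silenced. The LSEC genes Stab1, Stab2, Lyve1 and Clec4g were detected in every library. Of 14 endothelial and LSEC markers, 12 fell in the libraries labelled siAirn, with a summed level of 11616 to 11752 CPM (counts scaled to library size) in NC and 7464 to 8256 CPM in siAirn. Of 10 stellate cell and fibroblast markers 4 rose, and of the 9 hepatocyte markers tested 1 rose. Over all 13628 genes tested, 8.56% were called lower and 8.27% higher.

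Among 38 proteasome genes that passed the filter on low counts, 1 was called at an adjusted p under 0.05 in edgeR's quasi-likelihood test, against 16.8% of the 13628 genes tested. That gene, Psmb10, was lower in siAirn, where 8.56% of all genes were called lower and 8.27% higher. The study's own rule is a fold change over 1.4 with a p under 0.05, and its RNA-seq methods name no test. Applied to edgeR's fold changes and unadjusted p-values, this rule called 9.96% of all genes and 0 proteasome genes. An unadjusted p under 0.05 was found for 5 proteasome genes (Psma3, Psmb4, Psmb7, Psmb10 and Psmc4), all of them lower in siAirn, where 17.2% of all genes had such a p and were lower and 16.8% had one and were higher. Psmb11 was listed at 0 counts in all 4 libraries and was not tested.

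The precision of these estimates was high for most subunits. The median SE of the log2 fold change was 0.07 over the 38 genes and 0.10 over all genes tested. For 33 of the 38 the 95% interval of the fold change lay between a 1.4-fold decrease and a 1.4-fold increase, as it did for 6776 of the 13628 genes tested. The 5 genes whose interval reached beyond 1.4-fold were Psmb7, Psmb8, Psmb9, Psmb10 and Psma8.

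**Figure D1:**
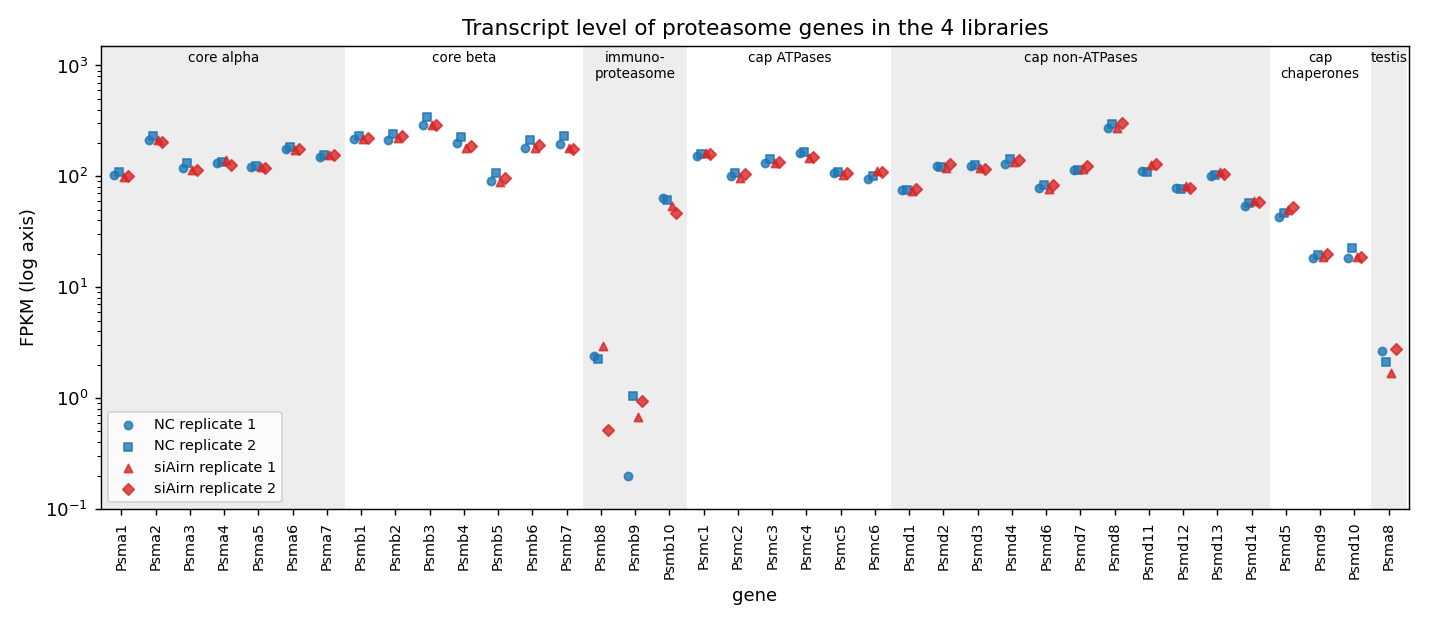
Transcript level (FPKM, log axis) of the 38 detected proteasome genes in the 2 NC libraries (blue) and the 2 siAirn libraries (red), ordered by class. Core and cap subunits lay in a band from 53.5 to 344.7 FPKM, while Psmb8, Psmb9 and Psma8 were below 3 FPKM in every library.

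The 7 alpha subunits of the core form its outer rings. In FPKM, a level per transcript length, their NC means ran from 106 for Psma1 to 222.5 for Psma2, a 2.10-fold range. Psma1 had 103 and 108 FPKM in NC and 98.6 and 99.7 in siAirn. Psma2 had 213 and 232 FPKM in NC and 212 and 206 in siAirn. The groups did not overlap for either gene, but for Psma2 the group means differed by less than the 2 NC libraries did. The log2 fold change was -0.14 (SE 0.06, edgeR adjusted p = 0.17) for Psma1 and -0.14 (SE 0.07, edgeR adjusted p = 0.20) for Psma2.

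Psma3 had the lowest estimate among the alpha subunits. It had 155 and 166 CPM in NC and 140 and 142 in siAirn, with a log2 fold change of -0.18 (SE 0.06, edgeR adjusted p = 0.096). At the other end, Psma7 had 127 and 133 CPM in NC against 128 and 130 in siAirn, and the groups overlapped. Psma7 gave a log2 fold change of -0.01 (95% interval -0.16 to 0.14). The median over the 7 was -0.11, and 0 of them passed the test.

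The beta subunits reached higher levels and varied more between the NC libraries. Their NC means ran from 98.1 FPKM for Psmb5, the chymotrypsin-like subunit, to 319 FPKM for Psmb3, a structural subunit without catalytic activity. Psmb3 had 293 and 345 FPKM in NC and 289 and 291 in siAirn. The siAirn libraries were close to each other and just below NC replicate 1, while NC replicate 2 stood above the other libraries. The log2 fold change of Psmb3 was -0.19 (SE 0.09, edgeR adjusted p = 0.18).

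Psmb4, another structural beta subunit, had 167 and 189 CPM in NC and 146 and 153 in siAirn. Its log2 fold change was -0.25 (SE 0.08), with an adjusted p of 0.07 in edgeR. Psmb1 and Psmb2 had estimates of -0.07 and -0.06, with adjusted p of 0.49 and 0.64 in the same test. The median over the 7 beta subunits was -0.13, and 0 of them passed the test.

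The 3 constitutive catalytic subunits did not pass either. Psmb5 had 68.7 and 80.9 CPM in NC and 65.2 and 72.0 in siAirn, and the groups overlapped, with a log2 fold change of -0.13 (SE 0.10, edgeR adjusted p = 0.40). Windows of 50 bases, the read length, showed 54.1% of the Psmb5 transcript also present in other annotated genes, so its counts depend on how reads were shared. Psmb6, the caspase-like subunit, had 167 and 198 CPM in NC and 162 and 173 in siAirn, also overlapping, with a log2 fold change of -0.13 (SE 0.09, edgeR adjusted p = 0.38).

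Psmb7, the trypsin-like subunit, was nearest to the threshold of the core genes. It had 168 and 199 CPM in NC and 149 and 149 in siAirn, so both siAirn libraries were below both NC libraries. The log2 fold change was -0.30 (SE 0.09) with an adjusted p of 0.058 in edgeR. The interval, -0.51 to -0.10, did not include 0 but the value did not pass after adjustment. The call depended on the test, since Psmb7 passed in DESeq2 (-0.30, adjusted p = 0.034), in edgeR's likelihood-ratio test (-0.30, adjusted p = 0.020) and after the GC and length correction (-0.42, edgeR adjusted p = 0.030), but not in limma on FPKM (-0.25, adjusted p = 0.11) or after the length correction (-0.16, edgeR adjusted p = 0.16). It also leaned on NC replicate 2, the higher NC library, with -0.18 when that library was left out and -0.42 when NC replicate 1 was. Psmb7 shares 9.26% of its windows with its neighbour Nek6, whose counts were 1592 and 2051 in NC, then 1219 and 1243 in siAirn. The counts of Psmb7 are whole numbers in every library, and whether reads were shared with Nek6 was not tested.

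All 14 core subunits had an estimate below 0, as had 6794 of the 13628 genes tested. For 9 of the 14 the groups did not overlap, where 31.9% of all genes were separate in this direction and 30.8% in the other. The median log2 fold change of the core was -0.13 beside 0.00 over all genes tested, with the sign turning to 0.02 under a correction for transcript length, where 9 of the 14 were above 0, and reaching -0.04 when GC content was corrected as well, where 5 were above 0. The core median was -0.06 when NC replicate 2 was left out and -0.19 when NC replicate 1 was. Core subunits also differed within a group: all 14 were higher in NC replicate 2 than in NC replicate 1, with a median log2 difference of 0.12. In siAirn, 11 of the 14 were higher in replicate 2, with a median of 0.03. The difference between the groups was therefore about as large as that between the 2 NC libraries.

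**Figure D2:**
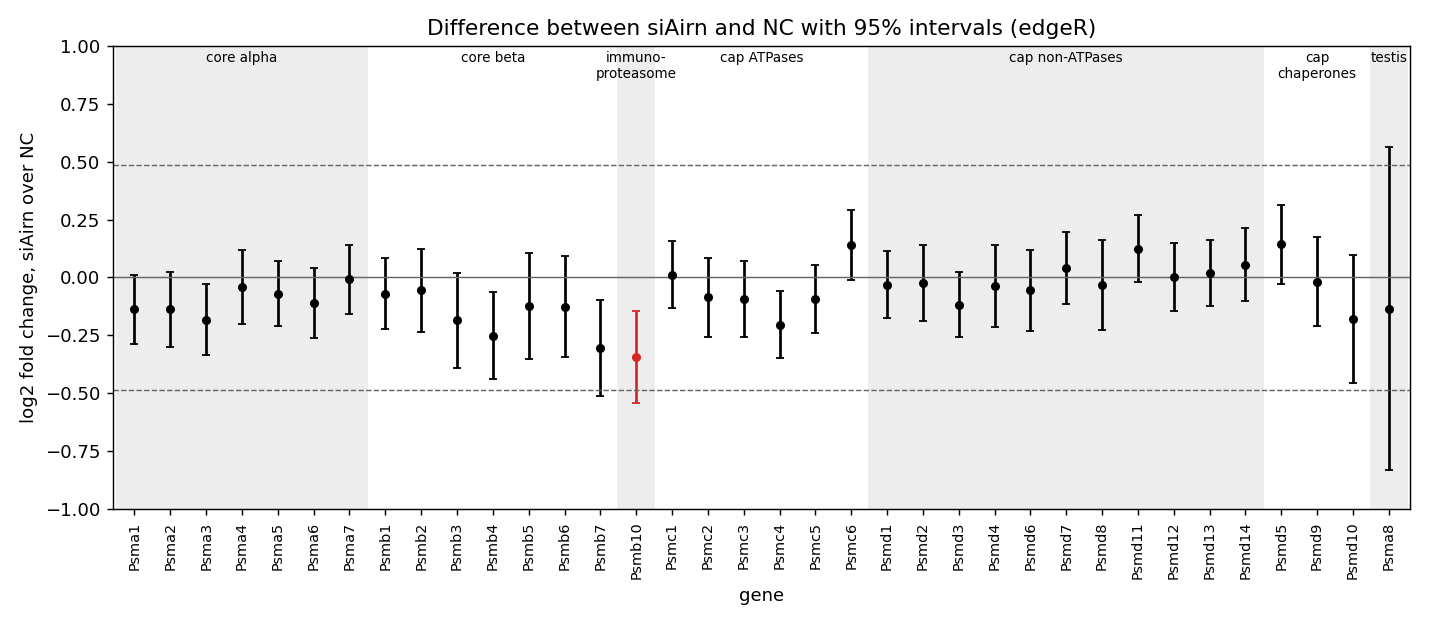
Log2 fold change of siAirn over NC for 36 proteasome genes, with 95% intervals from edgeR (bars) and 1.4-fold limits (dashed lines); Psmb8 and Psmb9 are left out because their intervals run beyond the axis. Psmb10 (red) is the gene called, at -0.34, and the 14 core subunits lie between -0.30 and -0.01.

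The ATPases of the cap, which unfold the substrate, kept within a 1.70-fold range in NC, from 96.9 FPKM for Psmc6 to 164 FPKM for Psmc4. Psmc4 had 217 and 222 CPM in NC and 187 and 194 in siAirn, with no overlap. Its log2 fold change was -0.20 (SE 0.06, edgeR adjusted p = 0.063). Psmc6 went the other way, with 137 and 147 CPM in NC and 156 and 156.5 in siAirn, and a log2 fold change of 0.14 (SE 0.06, edgeR adjusted p = 0.17). This value was 0.22 after the length correction (edgeR adjusted p = 0.047) but 0.0092 after the GC and length correction (edgeR adjusted p = 0.94). Psmc1, with 152 and 159 FPKM in NC and 162 and 159 in siAirn, had a log2 fold change of 0.01 (95% interval -0.13 to 0.16). Psmc2, with 101 and 108 FPKM in NC and 97.5 and 105 in siAirn, had one of -0.09 (95% interval -0.26 to 0.09). The subunits of this ring, which stand in the assembled cap in equal number, thus had estimates on both sides of 0, and 0 of 6 passed the test.

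The 11 non-ATPase subunits of the cap had a median log2 fold change of -0.02 and a range from -0.12 to 0.12. Psmd8 was the most abundant at 270.0 and 294.6 FPKM in NC and 271 and 303.5 in siAirn. Psmd14, the deubiquitinase that releases the ubiquitin chain, was the least abundant at 53.5 and 57.1 FPKM in NC and 59.7 and 58.6 in siAirn. Psmd8 overlapped between the groups and had a log2 fold change of -0.03 (95% interval -0.23 to 0.16). Psmd14 was higher in both siAirn libraries by a small margin, with a log2 fold change of 0.05 (95% interval -0.10 to 0.21).

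Psmd4, a receptor for ubiquitin in the cap, had 161 and 179 CPM in NC and 161 and 171 in siAirn. The scaffold subunits Psmd1 and Psmd2 had log2 fold changes of -0.03 and -0.02, with intervals that reached no further than -0.19 and 0.14. Psmd11 had 218 and 209 CPM in NC and 232 and 233 in siAirn, the highest estimate of the cap outside the ATPases at 0.12 (SE 0.06, edgeR adjusted p = 0.19), which became -0.0066 after the GC and length correction. For 8 of these 11 genes the groups overlapped, as they did for 37.3% of all genes.

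Over the 17 cap subunits the median log2 fold change was -0.03, with 10 below 0 and 7 above, and this sign was not stable: it was 0.01 in limma on FPKM, 0.05 after a length correction and 0.02 after a correction for GC content and length. Of the 17, 4 were separate and lower and 3 separate and higher in siAirn, beside 31.9% and 30.8% of all genes. The summed core level was 1.20 and 1.28 times the summed cap level in FPKM in the NC libraries and 1.16 and 1.14 times in siAirn. This ratio was lower in both siAirn libraries, with a mean log2 difference of -0.10, and an exact two-sided permutation test gave p = 0.33, the smallest that 2 against 2 libraries allow. Leaving out NC replicate 2 brought this difference to -0.06 and leaving out NC replicate 1 brought it to -0.15, while it was -0.12 and -0.09 when siAirn replicate 1 or 2 was left out. The comparison of core with cap was chosen after their values were seen.

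Transcript length moved with these estimates. The core transcripts were short, with a median of 861 bases as implied by count and FPKM, against 1479 bases for the cap and 2745 bases over all genes tested. Over the 31 core and cap subunits the fold change and the length had a Spearman correlation of 0.53, and over all 13628 genes one of 0.40. These points come from the same 4 libraries, so the values are descriptions. The 1875 tested genes shorter than 1234 bases, the median of the core and cap, had a median log2 fold change of -0.18. After the correction for length the core median was 0.02 and the cap median 0.05, beside -0.04 over all genes.

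**Figure D3:**
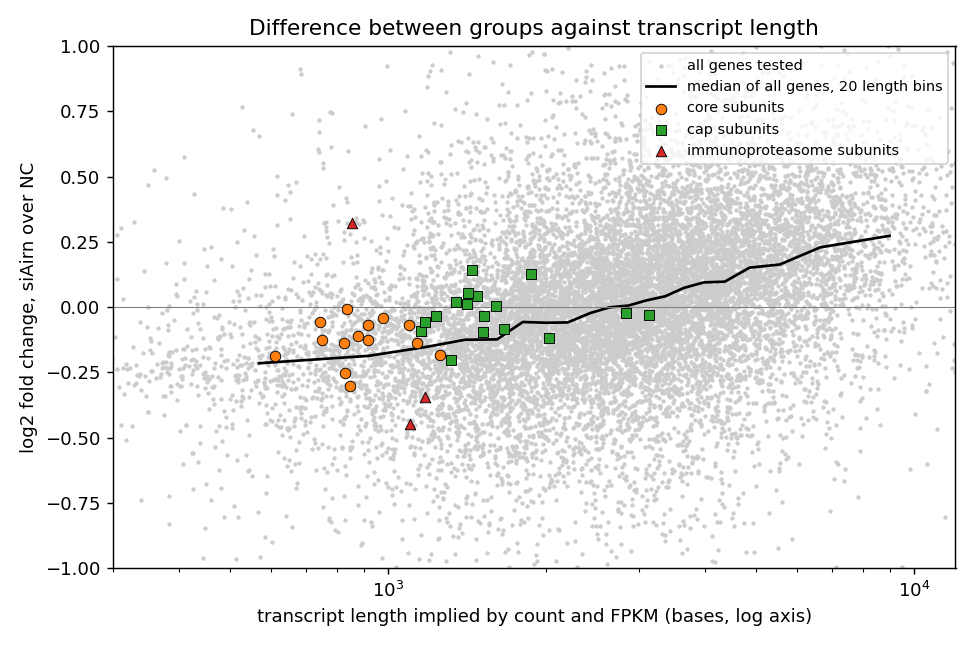
Log2 fold change of siAirn over NC against the transcript length (bases, log axis) for all genes tested (grey; genes beyond the axes are not drawn), with their median in 20 bins of length (black line) and the core, cap and immunoproteasome subunits marked. The core subunits lie at the short end, where the median over all genes is also below 0.

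The 3 assembly chaperones of the cap, which bind the ATPases before the cap is complete, were less abundant than any core or cap subunit. Psmd5 had 43.4 and 47.1 FPKM in NC and 50.2 and 53.0 in siAirn, higher in both siAirn libraries, with a log2 fold change of 0.14 (SE 0.07, edgeR adjusted p = 0.21) that became 0.0052 after the GC and length correction. Psmd9 had 45.8 and 49.2 CPM in NC and 44.9 and 49.0 in siAirn, with a log2 fold change of -0.02 (95% interval -0.21 to 0.17). Psmd10 had 24.7 and 30.5 CPM in NC and 24.1 and 24.7 in siAirn, with a log2 fold change of -0.18 (SE 0.12, edgeR adjusted p = 0.32). NC replicate 2 alone stood high for Psmd10, and 0 of the 3 passed the test.

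Of the subunits known from single tissues, Psma8 was counted at 72 and 61 in NC, then 47 and 76 in siAirn, or 1.69 to 2.75 FPKM, and the groups overlapped. The level of the alpha subunit Psma7, which Psma8 replaces in the testis, was between 149 and 157 FPKM in the same libraries. Psmb11, at 0 counts everywhere, could hold up to 3 counts, or 0.166 to 0.175 CPM in these libraries, from counting error alone.

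The immunoproteasome genes are shown with the sequence before their start sites, since their log2 fold changes lay furthest from 0 in the family. Only Psmb10 of them was called, and the groups overlapped for Psmb8 and Psmb9. Psmb5 and Psmb6 are shown as constitutive counterparts, and Psmb7 is not shown. RefSeq promoter windows (GRCm38.p6, 300 bases each) matched 32 of the 39 genes. The 150 bases before each start site are printed 5′ to 3′ on the gene's strand, with capitals where a searched motif lies.
Psmb8 (chr17:34198045-34198194, plus strand): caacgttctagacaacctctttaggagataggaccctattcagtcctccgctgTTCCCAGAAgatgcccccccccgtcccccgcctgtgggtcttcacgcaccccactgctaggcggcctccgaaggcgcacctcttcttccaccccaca
Psmb9 (chr17:34187331-34187480, minus strand): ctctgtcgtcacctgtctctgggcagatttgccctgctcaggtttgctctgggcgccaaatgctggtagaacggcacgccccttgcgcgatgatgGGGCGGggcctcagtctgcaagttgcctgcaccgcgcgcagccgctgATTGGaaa
Psmb10 (chr8:105938393-105938542, minus strand): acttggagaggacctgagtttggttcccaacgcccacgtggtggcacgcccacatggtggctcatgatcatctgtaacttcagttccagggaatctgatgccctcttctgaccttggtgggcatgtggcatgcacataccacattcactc
Psmb5 (chr14:54617996-54618145, minus strand): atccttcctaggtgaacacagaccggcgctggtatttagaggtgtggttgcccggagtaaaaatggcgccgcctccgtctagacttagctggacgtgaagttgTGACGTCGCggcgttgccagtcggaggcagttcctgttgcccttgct
Psmb6 (chr11:70525207-70525356, plus strand): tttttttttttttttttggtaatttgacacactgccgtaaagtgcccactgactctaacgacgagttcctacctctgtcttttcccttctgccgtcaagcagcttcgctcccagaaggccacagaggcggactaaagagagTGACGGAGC

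The motifs were sought on both strands. The gamma-activated site TTCNNNGAA, an element of the response to interferon gamma, began 97 bases before the start of Psmb8 and was held by 5.88% of the 34 windows of proteasome genes and 8.3% of all 32851 windows. Psmb9 had a GC box, GGGCGG, 55 bases before its start and a CCAAT box on the opposite strand 8 bases before it. GC boxes were in 55.9% of the proteasome windows and 35.7% of all windows, and CCAAT boxes in 38.2% and 37.4%. Psmb5 and Psmb6 carried the core of the antioxidant response element, TGACNNNGC, which Nfe2l1 and related factors bind, beginning 47 and 9 bases before the start, a motif in 14.7% of the proteasome windows and 12.4% of all windows. The interferon-stimulated response element core GAAANNGAA was in 14.7% and 8.56% and in none of the windows printed. These letters were not found in the printed window of Psmb10, and the matches describe the sequence, not binding. Psmb9 and the peptide transporter gene Tap1 start 226 bases apart on opposite strands.

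The immunoproteasome subunits were far apart in level. Psmb10 was at 64.2 and 61.5 FPKM in NC and 54.3 and 46.9 in siAirn. Psmb8 was at 2.38 and 2.23 FPKM in NC and 2.97 and 0.52 in siAirn, and Psmb9 at 0.20 and 1.04 in NC and 0.68 and 0.95 in siAirn. Psmb10 thus stood near Psmd14, the least abundant cap subunit, and above Psmb8 and Psmb9 in every library.

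Psmb10 was lower in both siAirn libraries than in either NC library, at 76.5 and 72.9 CPM in NC (74.7 ± 2.49, SD, n = 2) and 63.0 and 54.9 in siAirn (58.9 ± 5.73, SD, n = 2). The log2 fold change was -0.34 (SE 0.08, 95% interval -0.54 to -0.14), and the adjusted p was 0.036 in edgeR's quasi-likelihood test. In bulk RNA, fewer cells of a type and less RNA per cell cannot be told apart. Of 13 macrophage markers tested, 8 fell, beside 8.56% of all genes, with a summed level of 306 to 386 CPM in NC and 203 to 235 CPM in siAirn, and their part in the level of Psmb10 was not tested, nor was that of the endothelial markers. The methods name a bead selection for CD146, and the markers of other cell types were still counted. Stellate cell and fibroblast markers summed to 1122 and 1322 CPM in NC and 1375 and 1790 in siAirn. Hepatocyte markers summed to 619 and 791 CPM in NC and 859 and 1122 in siAirn. Lymphocyte and dendritic cell markers summed to 5.53 to 5.66 CPM in NC and 6.20 to 6.56 CPM in siAirn, with 0 of the 4 tested called and Cd3d, Klrb1c and Xcr1 at no more than 3 counts in any library.

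The call for Psmb10 did not hold under every processing. The adjusted p was 0.058 and 0.059 in limma on FPKM, 0.15 after a length correction, 0.29 after a correction for GC content and length, and between 0.13 and 0.17 without NC replicate 1, NC replicate 2 or siAirn replicate 2. The log2 fold change stayed below 0 in each alternative run, from -0.45 to -0.17. Without 1 library the spread comes from the other group's pair alone, and few genes of any kind passed without NC replicate 1 (35 of 13628) or NC replicate 2 (0 of 13628), while the log2 fold change of Psmb10 was -0.31 and -0.38 in these fits.

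Psmb8 and Psmb9 differed more between libraries of a group than between the groups. Psmb8 was counted at 45.5 and 45.3 in NC, then 57.9 and 10.1 in siAirn, so siAirn replicate 1 was the highest library and siAirn replicate 2 the lowest. Its log2 fold change was -0.45 with an SE of 0.63 (edgeR adjusted p = 0.66), and it became 0.31 without siAirn replicate 2 (edgeR adjusted p = 0.59) and -2.18 without siAirn replicate 1 (edgeR adjusted p = 0.014). The counts of Psmb8 are not whole numbers, and 11.9% of its windows are also found in Gm20496, Gm27162, Ptprd or Gm10602. Psmb9 was counted at 2.91 and 16.4 in NC, then 10.2 and 14.3 in siAirn, and NC replicate 1 was at the level that a count of 0 allows. Its log2 fold change was 0.32 with an SE of 0.70 (edgeR adjusted p = 0.78).

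**Figure D4:**
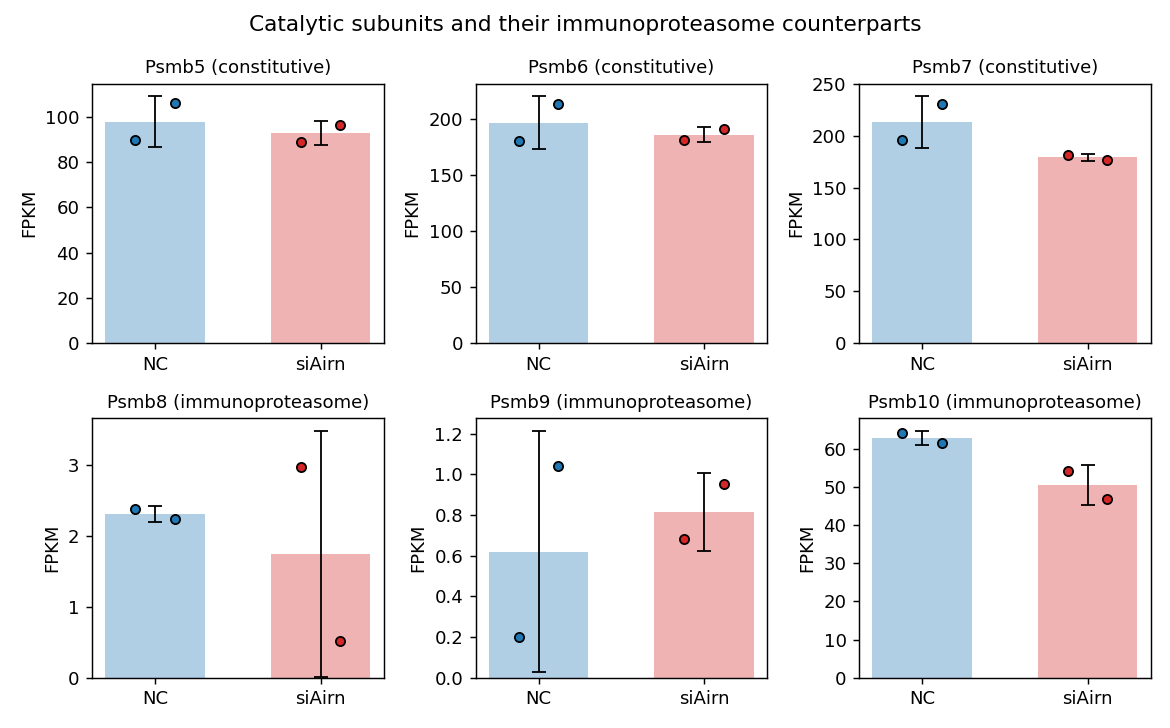
FPKM of the constitutive catalytic subunits (top) and of their immunoproteasome counterparts (bottom) in NC and siAirn, with bars at the mean, whiskers of 1 SD (n = 2) and points for the libraries. Psmb10 is separate between the groups, whereas Psmb8 rests on 1 low siAirn library at 0.52 FPKM and Psmb9 on 1 low NC library at 0.20 FPKM.

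The ratio of each immunoproteasome subunit to the subunit it replaces was compared over libraries. Psmb10 reached 32.8% and 26.6% of the Psmb7 level in NC and 30.0% and 26.5% in siAirn on the FPKM scale. The ranges overlapped, and the log2 ratio differed by -0.07 between the groups (exact two-sided permutation p = 0.67). The log2 fold changes of the genes themselves were -0.34 for Psmb10, which passed the test, and -0.30 for Psmb7, which did not, and became -0.17 and -0.42 after the GC and length correction. Psmb8 was at 2.64% and 2.10% of Psmb5 in NC and 3.33% and 0.54% in siAirn, with a log2 difference of -0.82 (exact two-sided permutation p = 1). Psmb9 was at 0.11% and 0.49% of Psmb6 in NC and 0.38% and 0.50% in siAirn, with a log2 difference of 0.89 (exact two-sided permutation p = 0.67). Each of these differences turned on single libraries. It became 0.50 for Psmb8 over Psmb5 without siAirn replicate 2, -0.17 for Psmb9 over Psmb6 without NC replicate 1, and 0.08 and 0.02 for Psmb10 over Psmb7 without NC replicate 1 or siAirn replicate 2. All 3 adjusted p were 1, and 2 libraries against 2 cannot give a p under 0.33. In these cells the transcripts of the constitutive catalytic subunits were more abundant than those of their counterparts in every library and for every pair.

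The activators that dock on the core in place of the cap gave a mixed picture. Psme1 and Psme2 form the interferon-inducible activator of the immunoproteasome. Psme1 had 188 and 171 CPM in NC and 156 and 144 in siAirn, with a log2 fold change of -0.26 (SE 0.08) and an adjusted p of 0.058 in edgeR. Psme2 had 145 and 148 CPM in NC and 131 and 127.5 in siAirn, with a log2 fold change of -0.19 (SE 0.06) and an adjusted p of 0.078 in edgeR. The groups were separate for both, and Psme1 passed the threshold with upper-quartile normalization (edgeR adjusted p = 0.048).

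Psme4, the large nuclear activator, rose from 90.5 and 88.4 CPM in NC to 107 and 107 in siAirn, with a log2 fold change of 0.26 (SE 0.06, edgeR adjusted p = 0.030). After the correction for transcript length its log2 fold change was 0.02 (edgeR adjusted p = 0.83), and with GC content corrected as well it was 0.0080 (edgeR adjusted p = 0.94). In DESeq2 the log2 fold change was 0.26, as in edgeR, with an adjusted p of 0.060. Psme3 had a log2 fold change of 0.04 (SE 0.06, edgeR adjusted p = 0.69). Of the 4 activators and the inhibitor Psmf1, 5 genes in all, 1 rose and 0 fell, beside 8.27% and 8.56% of all genes.

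Of the 5 assembly factors of the core 0 passed the test in edgeR, beside 16.8% of all genes. An unadjusted p under 0.05 was found for 1 of them, which was lower, beside 17.2% of all genes. All 5 estimates were below 0, as were 6794 of 13628 over all genes, with a median of -0.17. Their transcripts were short as well, with a median of 723.5 bases. The tested genes shorter than 1234 bases had a median log2 fold change of -0.18. The part of length in the estimates of the assembly factors was not tested. Pomp, the maturation factor of the beta ring, had 115 and 126.5 CPM in NC and 110 and 106.5 in siAirn, with a log2 fold change of -0.16 (SE 0.07, edgeR adjusted p = 0.18). Among 13 partners of the cap, 3 rose and 2 fell, beside 8.27% and 8.56% of all genes. The 2 that fell belong to the cap itself: the ubiquitin receptor Adrm1 went from 222 and 229 CPM in NC to 189 and 194 in siAirn (log2 fold change -0.24, SE 0.06, edgeR adjusted p = 0.039), and Sem1 from 88.1 and 92.1 CPM to 74.2 and 76.8 (-0.26, SE 0.06, edgeR adjusted p = 0.039). Ubqln2, a shuttle that delivers ubiquitinated substrates, rose by 0.28 on the log2 scale, the ubiquitin ligase Ube3c by 0.27 and the adaptor Ecpas by 0.32, with edgeR adjusted p of 0.029, 0.039 and 0.022. After the length correction none of these 5 passed: Ubqln2 was at 0.22 on the log2 scale (edgeR adjusted p = 0.058), Ecpas at 0.10, Ube3c at 0.09, Adrm1 at -0.14 and Sem1 at -0.11, with edgeR adjusted p from 0.13 to 0.37 for the last 4. The calls also depended on the test. In DESeq2, with fold changes close to those in edgeR, Sem1 (-0.25), Ubqln2 (0.285) and Ube3c (0.27) did not pass, with adjusted p of 0.095, 0.075 and 0.064. In limma on FPKM with either pseudocount Adrm1 (-0.19), Sem1 (-0.20) and Ecpas (0.27 and 0.285) did not pass, with adjusted p from 0.056 to 0.073. Ube3c did not pass with the looser filter on low counts (0.26, edgeR adjusted p = 0.055), nor did Adrm1, Ube3c and Ecpas after the GC and length correction (-0.215, 0.12 and 0.046, edgeR adjusted p of 0.063, 0.25 and 0.63). Without single libraries all 5, and Psme4, kept their direction, but of these 6 only Ecpas passed, without siAirn replicate 1 (edgeR adjusted p = 0.043).

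Of the 13 regulators of proteasome genes 0 passed the test in edgeR, beside 16.8% of all genes. An unadjusted p under 0.05 was found for 4 of them, 3 higher and 1 lower, beside 16.8% and 17.2% of all genes. The groups were separate and higher in siAirn for 6 and separate and lower for 3, beside 30.8% and 31.9%. Nfe2l1, the factor that raises proteasome transcription when degradation is impaired, had 301 and 282 CPM in NC and 326.5 and 348 in siAirn, with a log2 fold change of 0.21 (SE 0.07) and an adjusted p of 0.076 in edgeR. Nfe2l2, the oxidative stress factor, had 177 and 168 CPM in NC and 201.5 and 200.1 in siAirn (0.22, SE 0.06, edgeR adjusted p = 0.053), and Ddi2, the protease that activates Nfe2l1, had 107 and 91.2 CPM in NC and 126 and 119 in siAirn (0.30, SE 0.09, edgeR adjusted p = 0.060). The groups were separate for these 3 genes. The alternative ubiquitin-activating enzyme Uba6 rose from 19.3 and 22.1 CPM to 34.6 and 38.3 (log2 fold change 0.82, SE 0.10, edgeR adjusted p = 0.0078). Uba6 passed in every fit on all 4 libraries.

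Class I presentation, the pathway that carries the peptides to the cell surface, was examined with a list of 10 genes. Of these 5 fell and 0 rose, beside 8.56% and 8.27% of all genes, and the median log2 fold change was -0.26. The 12 endothelial and 8 macrophage markers called lower moved with this list and with the interferon genes, and their part in either was not tested. Tapbp, which bridges the transporter and the class I molecule, fell from 338 and 330.4 CPM to 205 and 216 (-0.67, SE 0.06, edgeR adjusted p = 0.0050). Tap1, the neighbour of Psmb9, fell from 58.1 and 53.2 CPM to 43.7 and 41.9 (-0.38, SE 0.08, edgeR adjusted p = 0.023), while Tap2, with 7.60 and 8.41 CPM in NC and 7.40 and 7.56 in siAirn, gave -0.09 (SE 0.14, edgeR adjusted p = 0.69).

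The class I heavy chains H2-K1 and H2-D1 fell by 0.56 and 0.54 on the log2 scale (edgeR adjusted p of 0.012 and 0.026), and their light chain B2m fell by 0.32 (edgeR adjusted p = 0.019). Heavy chains are a family of similar genes, so reads may have been shared among them. Tap1, Tapbp and H2-K1 passed in every fit on all 4 libraries. B2m did not pass in limma (-0.27, adjusted p of 0.073 and 0.068) or after the length correction (-0.17, edgeR adjusted p = 0.068), and H2-D1 did not pass after the GC and length correction (-0.42, edgeR adjusted p = 0.066).

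Of 18 genes of the interferon pathway 4 fell and 0 rose, beside 8.56% and 8.27% of all genes. The inducible genes Ifit3 and Isg15 fell by 0.74 and 0.33 on the log2 scale (edgeR adjusted p of 0.014 and 0.018), the chemokine Cxcl9 fell by 1.07 (edgeR adjusted p = 0.013), and the receptor kinase Jak1 fell by 0.25 (edgeR adjusted p = 0.033). Isg15 did not pass after the length correction (-0.19, edgeR adjusted p = 0.17) or the GC and length correction (-0.18, edgeR adjusted p = 0.20), and Jak1 did not pass in limma (-0.15 with either pseudocount, adjusted p of 0.14 and 0.15). Irf1, a transcription factor that acts on immunoproteasome genes, had a log2 fold change of -0.06 (SE 0.08, edgeR adjusted p = 0.64), and Nlrc5, the class I transactivator, one of 0.14 (SE 0.13, edgeR adjusted p = 0.46). For both the groups overlapped.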

How the data were processed

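RNA-seq was analysed in 4 libraries, 2 NC and 2 siAirn, grouped by their labels. The authors deposited estimated counts per gene, not normalized, of which 76.5% to 76.8% are whole, and a second value read here as FPKM, deposited without a named unit. Per the submitters' processing notes, BWA, Bowtie2 and RSEM were used and hg19 is the build named, although the cells are from mice; strand use is not given in the sources used here.

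Counts were rounded and tested with edgeR 4.0.16 in R 4.3.3 (TMM factors 0.985 to 1.02, filterByExpr, quasi-likelihood test, Benjamini-Hochberg adjustment over 13628 genes). CPM used the TMM library sizes. Alternatives were DESeq2 1.42.0, limma 3.58.1 on log2(FPKM + 1) and log2(FPKM + 0.1) for a mean FPKM of at least 1, upper-quartile scaling, other filters (1 count, or 10 in every library), a likelihood-ratio test, a replicate block, splines with 5 degrees of freedom on length or on GC content and length, and leaving out each library. Ratios were tested by exact permutation. Counting limits used 3 counts and cover counting error only.

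The calculations were tested on simulated data. GENCODE M21 gave GC content, length and shared windows of 50 bases, and RefSeq the promoters.

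The genes and lists were chosen with earlier results of these data known. Named were Psmb5 to Psmb10, members with an adjusted p under 0.05, the highest and lowest of each class, and listed pathway genes; other members were named after their values were seen. Some listed genes are not reported here.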

Additional observations from a re-analysis of the deposited data

How the results depend on the processing

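With 2 libraries a group, each result leans on every library. The number of proteasome genes called was 1 in the main test, with upper-quartile scaling, with both other filters and after the length correction (where it was Psmc6, higher), 2 in DESeq2 (Psmb7 and Psmb10), 3 in the likelihood-ratio test (Psmb4, Psmb7 and Psmb10), 3 after the GC and length correction (Psma2, Psma3 and Psmb7), 0 in limma with either pseudocount and 0 by the study's own rule. Over all genes DESeq2 called 9.54%, the likelihood-ratio test 23.0%, the GC and length correction 10.1%, the length correction 11.3% and limma 14.9% and 15.0%. Leaving out 1 library gave 0 to 2: 2 (Psmb8 and Psmb10) without siAirn replicate 1, where 17.1% of all genes were called, and 0 in the other 3 fits, where 10.2% were called without siAirn replicate 2, 35 of 13628 without NC replicate 1 and 0 without NC replicate 2. The core median log2 fold change of -0.13 was 0.0174 after the length correction and -0.0438 after the GC and length correction, and ran from -0.188 to -0.0614 without single libraries. The cap median of -0.03 was 0.0134 and 0.0135 in limma, 0.0542 after the length correction and 0.0204 after the GC and length correction, and ran from -0.0766 to 0.00257 without single libraries. The immunoproteasome median of -0.34 over 3 genes was -0.558 in limma on log2(FPKM + 0.1), where Psmb9 was below the FPKM minimum and the value is the midpoint of Psmb8 (-0.801) and Psmb10 (-0.315) alone. Over all 3 genes it was -0.233 after the length correction and -0.166 after the GC and length correction, and ran from -0.446 to 0.0445 without single libraries, being above 0 without siAirn replicate 2. Without single libraries, the difference of siAirn from NC in the log2 ratio of Psmb8 to Psmb5 ran from -2.13 to 0.50. The same difference ran from -0.172 to 1.96 for Psmb9 to Psmb6 and from -0.219 to 0.0843 for Psmb10 to Psmb7. Apart from the limma value of the immunoproteasome, the cause of these shifts was not tested.

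With a replicate block 7 proteasome genes were called: Psma3, Psmb3, Psmb4, Psmb7, Psmb10 and Psmc4 lower and Psmc6 higher, as 35.5% of all genes were called. Same-numbered libraries deviated together with a correlation of 0.23, but only 2 pairs share a number and the labels do not say that it marks a batch.

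Genes not called in the main test changed sign in some fits. Above 0 were 9 of the 14 core subunits after the length correction (Psma2, Psma4, Psma5, Psma6, Psma7, Psmb1, Psmb2, Psmb5 and Psmb6), 5 after the GC and length correction and 1 in limma (Psma7). Of the 17 cap subunits 4 changed sign after the length correction, 5 after the GC and length correction and 4 in limma (Psmd1, Psmd2, Psmd4 and Psmd8). After the length correction Psmb5 was 0.0238, Psmb6 0.011, Psma2 0.00438, Psmd8 0.0416 and Nlrc5 -0.117. After the GC and length correction Psmb5 was 0.0751, Psmb6 0.0122, Psmd8 0.0617, Psmd9 0.0080, Nlrc5 -0.0179 and Irf1 0.0288. In limma Psmd8 was 0.0246 and 0.0247, and Psmd9 0.021 and 0.022. Without single libraries, Psmb8 ran from -2.18 to 0.311, Psmb9 from -0.395 to 1.90, Psmb6 from -0.246 to 0.00246, Psma8 from -0.54 to 0.184, Psmc1 from -0.0199 to 0.0403, Psmd8 from -0.125 to 0.0543, Psmd9 from -0.081 to 0.0431 and Irf1 from -0.135 to 0.0215. The SE of the log2 fold change was 0.63 for Psmb8, 0.70 for Psmb9 and 0.29 for Psma8, and Psmb11 had no counts.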

Other observations

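The heat shock chaperones, which fold proteins that would otherwise reach the proteasome, were checked as a group that the comparisons above did not use. Of 11 genes 0 passed the test in edgeR, beside 16.8% of all genes, with 2 at an unadjusted p under 0.05 (1 higher and 1 lower, beside 16.8% and 17.2% of all genes), and the median log2 fold change was 0.05. Hsp90aa1 had 1075 and 1028 CPM in NC and 1194 and 1227 in siAirn, a log2 fold change of 0.20 (SE 0.06) with an adjusted p of 0.058 in edgeR. Hsf1, the transcription factor of the heat shock response, had 78.0 and 74.4 CPM in NC and 65.7 and 65.5 in siAirn, a log2 fold change of -0.22 (SE 0.06) with an adjusted p of 0.063 in edgeR. Both genes were chosen after their values were seen.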
